A study of Homo sapiens with 18 samples.

Results

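At 1337 sites in Kasumi-1 cells, anti-Flag gave a peak in control cells and anti-ETO gave a peak after miR-130a knockdown, while control anti-ETO and knockdown anti-Flag gave none. Kasumi-1 is a human leukaemia cell line with the t(8;21) translocation, which fuses RUNX1 (AML1) to RUNX1T1 (ETO). The cells carried AML1-ETO with a Flag tag, and 200000 GFP+ cells were sorted 72 hours after transduction for CUT&RUN, in which an antibody directs a nuclease to its target and the released DNA is sequenced. Each of 6 groups held 3 libraries: control or miR-130a KD cells, each with anti-ETO, anti-Flag or mouse IgG. All groups, controls included, carried the tagged fusion and were transduced. The sources used here do not say what the control vector held, or whether the Flag-tagged cells came from a single clone.

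The sites were found by merging the control ETO, control Flag, knockdown ETO and knockdown Flag peak lists wherever peaks shared at least 1 bp, which gave 35622 merged regions. Regions with a control Flag and a knockdown ETO peak and no peak of the other 2 kinds were taken, and are called swap regions below. They made up 3.75% of all merged regions. The name describes list membership: the deposited lists hold positions only, so no signal was seen to move from one antibody to the other. Each list stands for its 3 libraries together, so values per library, the depth behind a call and the spread between replicates are unknown. The tests below compare kinds of regions, and regions are not replicates of a condition. The intervals cover counting error only.

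AML1-ETO binds DNA through the Runt domain of RUNX1, which recognises a short core motif, and its ETO part recruits corepressor complexes that contain NCoR and histone deacetylases. The ETO antibody and the Flag antibody read different parts of the same tagged protein. An antibody against ETO can also bind ETO protein that carries no tag, including AML1-ETO from the cell line's own translocation. In myeloid cells the RUNX1 programme acts at promoters and at distant enhancers of blood genes.

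The promoters that swap regions covered were rich in G and C, as were those under regions in all 4 lists. A RUNX core was in a smaller share of the swap promoters than of the promoters under all 4 lists. The swap promoters are shown by 6 sequences, each the 250 bases upstream of a gene start on the gene's strand, from RefSeq (GRCh38.p14). Capitals mark the RUNX core (TGTGGT or TGCGGT), the ETS motif (CCGGAA), the SP/KLF motif (GGGCGG) and the CCAAT box, on either strand; matches describe letters, not bound sites. FJX1, OTUB1 and PDSS2 had the longest overlap of the control Flag and knockdown ETO peaks among swap regions that cover a protein-coding promoter. DNMT3A, FLT3 and SMAD3 were picked afterwards from the listed genes, because their swap regions cover all 250 bases.
FJX1 (chr11:35618210-35618459, plus strand): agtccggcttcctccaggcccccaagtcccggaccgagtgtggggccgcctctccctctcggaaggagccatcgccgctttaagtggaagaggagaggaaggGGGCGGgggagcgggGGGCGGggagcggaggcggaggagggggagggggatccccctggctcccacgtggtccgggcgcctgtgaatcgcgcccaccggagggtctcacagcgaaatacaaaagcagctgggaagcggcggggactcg
OTUB1 (chr11:63986188-63986437, plus strand): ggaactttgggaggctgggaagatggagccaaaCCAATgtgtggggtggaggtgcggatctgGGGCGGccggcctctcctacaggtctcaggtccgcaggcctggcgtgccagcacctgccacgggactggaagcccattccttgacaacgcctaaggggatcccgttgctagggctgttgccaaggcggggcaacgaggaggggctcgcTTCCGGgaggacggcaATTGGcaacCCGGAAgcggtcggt
PDSS2 (chr6:107459565-107459814, minus strand): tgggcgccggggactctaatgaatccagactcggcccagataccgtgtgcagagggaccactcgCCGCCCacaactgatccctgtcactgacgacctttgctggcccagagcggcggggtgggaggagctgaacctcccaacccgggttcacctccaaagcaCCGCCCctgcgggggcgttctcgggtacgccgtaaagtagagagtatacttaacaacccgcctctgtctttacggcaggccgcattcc
DNMT3A (chr2:25342591-25342840, minus strand): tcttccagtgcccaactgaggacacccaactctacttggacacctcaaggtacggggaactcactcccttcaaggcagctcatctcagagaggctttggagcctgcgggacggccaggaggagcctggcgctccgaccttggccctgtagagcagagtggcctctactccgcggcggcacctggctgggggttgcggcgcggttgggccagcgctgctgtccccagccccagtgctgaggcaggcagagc
FLT3 (chr13:28100577-28100826, minus strand): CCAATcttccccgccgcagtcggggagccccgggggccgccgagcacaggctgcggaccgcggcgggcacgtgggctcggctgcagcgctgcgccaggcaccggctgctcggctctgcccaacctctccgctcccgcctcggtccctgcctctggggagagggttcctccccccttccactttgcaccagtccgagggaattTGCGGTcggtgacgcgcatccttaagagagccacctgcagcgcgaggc
SMAD3 (chr15:67098429-67098678, plus strand): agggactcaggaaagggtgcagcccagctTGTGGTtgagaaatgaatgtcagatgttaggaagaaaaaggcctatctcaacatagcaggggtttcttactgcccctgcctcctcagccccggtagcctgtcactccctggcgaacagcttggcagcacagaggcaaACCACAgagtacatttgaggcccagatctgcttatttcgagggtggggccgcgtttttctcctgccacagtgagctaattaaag
SMAD3 held 2 RUNX cores and FLT3 held 1, while the FJX1, OTUB1, PDSS2 and DNMT3A sequences held none. OTUB1 held 2 ETS motifs, 2 CCAAT boxes and 1 SP/KLF motif. FJX1 and PDSS2 each held 2 SP/KLF motifs. The swap regions covered only 92 of the 250 bases for FJX1 and 98 for PDSS2, and all 250 for OTUB1. The 2 FJX1 motifs, and the PDSS2 motif nearer the gene start, lay outside the covered part. The SMAD3 sequence was 52.8% G and C, against 72.0% for FLT3.

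Control Flag regions without control ETO gave a swap region about as often as they kept Flag alone, and the mirror image was the rarest of the 15 combinations of lists. Of 8916 regions with a control Flag peak and no control ETO peak, 1337 (14.996%) had ETO alone in knockdown and 1343 (15.1%) had Flag alone in both conditions (called Flag-both). A further 2597 (29.1%) had both antibodies in knockdown, and 3639 (40.8%) had neither. Of 1358 regions with a control ETO peak and no control Flag peak, 14 (1.03%) had Flag alone in knockdown and 579 (42.6%) had ETO alone in both conditions (ETO-both). Read from knockdown, 1337 of 7909 regions with ETO and no Flag (16.9%) had Flag alone in control. Of 9397 knockdown regions with Flag and no ETO, 14 (0.149%) had ETO alone in control. These counts follow from the member rule and are a description with no test.

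The number of swap regions fell when lists were shortened by peak width. The control ETO list was the shortest, with 14264 peaks, against 23162 control Flag, 22594 knockdown ETO and 25961 knockdown Flag peaks. When all 4 lists were cut to the shortest length by keeping their widest peaks, 491 swap regions and 96 mirror regions were found, and 289 of the 1337 swap regions (21.6%) overlapped one of the 491. With the knockdown lists cut in the same way to the lengths of their control lists, the counts were 575 and 70. Both cuts changed list length and peak width together, and these were not tested apart. The swap regions were more numerous than the mirror regions under each of the 6 alternatives for list length, merging and chromosomes. The limit on chromosomes left both counts unchanged.

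**Figure D1:**
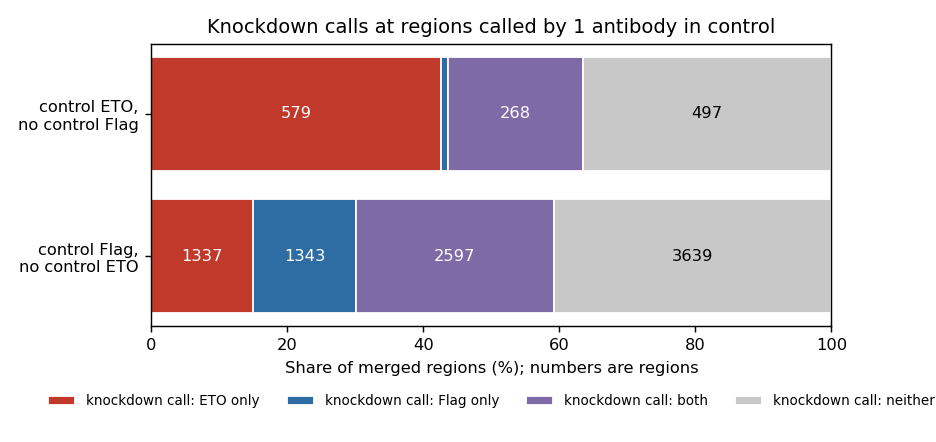
Horizontal bars divide the merged regions called by 1 antibody in control (rows) by the antibodies that called them in knockdown, as a share in percent, with the number of regions in each segment. The ETO only segment of the lower bar is the 1337 swap regions, and the narrow Flag only segment of the upper bar is the 14 mirror regions.

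The pair of peaks in a swap region mostly lay on top of each other. The merged swap regions had a median width of 418 bp, near that of ETO-both (420 bp) and below those of Flag-both (479 bp) and of regions in all 4 lists (1056 bp). In 1316 of the 1337 regions (98.4%) there was 1 peak of each kind. In these, the control Flag peak had a median width of 333 bp, against 416 bp over the whole control Flag list. The knockdown ETO peak had a median width of 347 bp, against 453 bp over its list. The pair shared a median of 253 bp over all members (quartiles 176 and 344 bp), which was a median of 91.5% of the Flag peak and 86.4% of the ETO peak. Their centres were a median of 45 bp apart. The Flag peak lay inside the ETO peak at 363 sites (27.6%) and the ETO peak inside the Flag peak at 270 (20.5%). The ETO peak was the wider of the pair at 737 sites (56.003%) and the Flag peak at 571 (43.4%).

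The rule's threshold of 1 bp touched few sites. The member with the least overlap lay at RARG, the gene of retinoic acid receptor gamma, where the peaks shared 1 bp (chr12:53232420-53232942). The next 4 members shared 6, 8, 9 and 26 bp, and 51 members in all shared 100 bp or less. Just outside the rule, regions with control Flag alone were paired with neighbouring regions with knockdown ETO alone. The closest pairs were 14, 16, 20, 27 and 30 bp apart, and 15 such pairs lay within 100 bp. Peaks in regions that also held other lists were not searched.

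Peaks of the absent antibodies lay within 1 kb of some swap regions, and no such peak lay within 1 kb of most. The nearest control ETO peak was a median of 5384 bp away, and the nearest knockdown Flag peak a median of 4501 bp away. A control ETO peak lay within 1 kb of 390 swap regions (29.2%) and a knockdown Flag peak within 1 kb of 417 (31.2%). Both lay within 1 kb of 272 swap regions (20.3%), and neither did at 802 (60.0%). For comparison, a knockdown ETO peak lay within 1 kb of 31.3% of Flag-both regions and a control ETO peak within 1 kb of 15.5%. For ETO-both regions the shares were 27.8% for a control Flag peak and 18.5% for a knockdown Flag peak. Another merged region of any kind lay within 1 kb of 700 swap regions (52.4%), and for 247 of these 700 (35.3%) that nearest neighbour was a region in all 4 lists. A share of the swap regions thus sat on the flank of a site called by both antibodies in both conditions, and a larger share stood apart from any call of the absent antibodies.

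**Figure D2:**
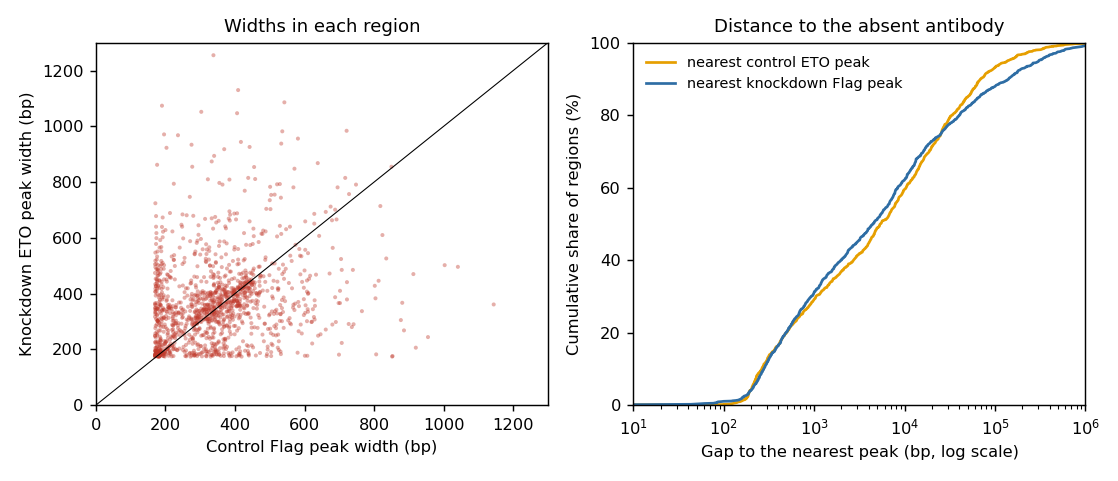
Left, knockdown ETO peak width against control Flag peak width in bp for each swap region (1 point each, summed where a list has more than 1 peak), with the line of equal width. Right, the cumulative share of swap regions in percent against the gap in bp (log axis) to the nearest control ETO and knockdown Flag peak: both curves climb slowly, with 59.5% and 62.2% of regions reached at 10 kb.

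Swap regions stood at gene starts more often than regions with Flag in both conditions and less often than regions with ETO in both conditions. Chromosome 8 has no entries in the gene start table used here, so its 34 members were left out of this comparison. Of the other 1303 swap regions, 430 (33.0%, 95% Wilson interval 30.5 to 35.6) had their centre within 1 kb of a gene start, against 29.9% of all merged regions. Among Flag-both regions the share was 83 of 1205 (6.89%, 5.59 to 8.46), 26.1 percentage points lower (two-sided Fisher's exact test on regions, Benjamini-Hochberg over 3 comparisons, adjusted p = 4.5e-63). Among ETO-both regions it was 376 of 570 (65.96%, 61.98 to 69.7), a difference of -32.96 points for the swap regions (same exact test, adjusted p = 5.7e-40). The difference from the mirror regions, of which 6 of 13 lay at a start, did not pass (-13.2 points, same exact test, adjusted p = 0.376).

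The swap share also lay between those of the sites called by only 1 of its lists. It was 16.3% (15.1 to 17.6) for regions with a control Flag peak alone and 36.7% (35.1 to 38.3) for regions with a knockdown ETO peak alone. The differences of swap regions from these were 16.7 points (adjusted p = 1.8e-34) and -3.701 points (adjusted p = 0.0182, in Fisher's exact tests added after the lists were seen). The second difference did not pass the exact test with the knockdown lists at the control lengths (-1.11 points, adjusted p = 0.697) and under 3 of the other alternatives. Regions in all 4 lists had 51.7% at a start, from which swap regions differed by -18.7 points (exact test, adjusted p = 2.3e-36). The swap share itself was 23.2% when all lists had the length of the shortest.

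**Figure D3:**
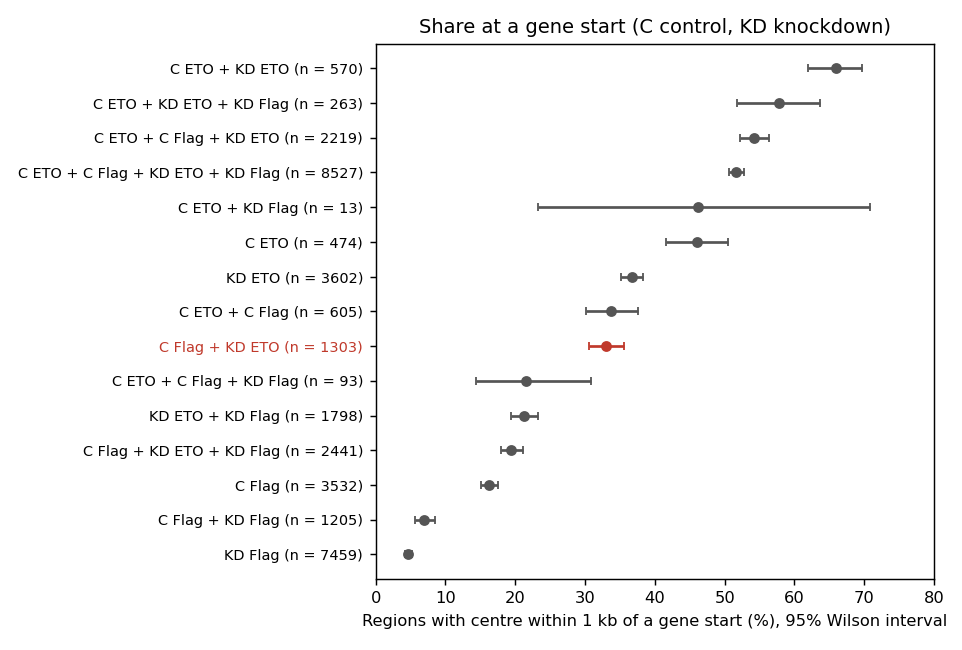
Share of merged regions with their centre within 1 kb of a gene start, in percent, for each of the 15 combinations of lists, with 95% Wilson intervals as bars and the number of regions in brackets. Swap regions (C Flag + KD ETO, in red) are at 33.0%, between 6.89% for Flag in both conditions and 65.96% for ETO in both.

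Within the gene starts, swap regions centred close to the start on both sides. Of the 430, 187 lay upstream and 243 downstream, and 198 were within 250 bp, which is 15.2% of the swap regions. The share within 250 bp was 41.6% for ETO-both, 1.33% for Flag-both and 24.7% for regions in all 4 lists. At 96 of the 430 (22.3%) the start belonged to a pair of genes transcribed away from each other, against 26.5% for regions in all 4 lists, 27.1% for ETO-both and 15.7% for Flag-both. The share at a gene start was 39.6% (35.5 to 43.9) among swap regions with a peak of an absent antibody within 1 kb and 28.6% (25.6 to 31.9) among those with neither. With the swap regions in 4 bins of shared bases, it was lowest, 21.95% (17.8 to 26.7), where peaks shared 345 to 714 bp, and 34.7% to 39.1% in the other bins. These splits are descriptions with no test.

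**Figure D4:**
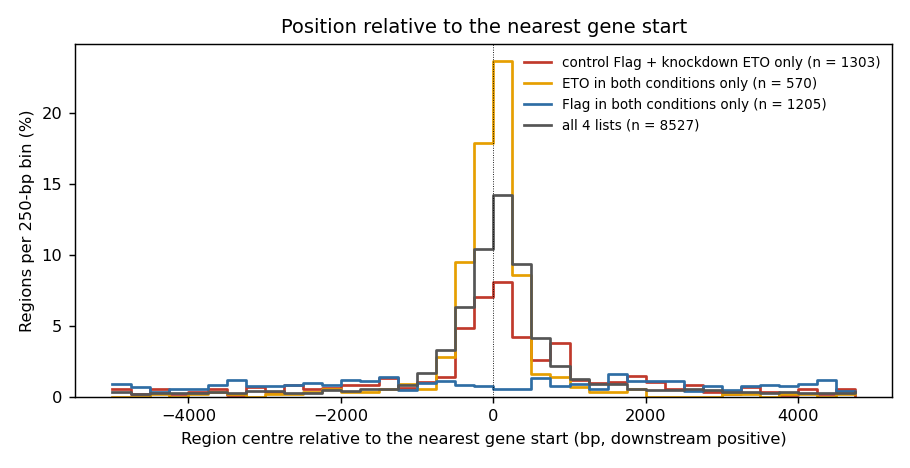
Share of regions in percent per 250-bp bin of the distance from the region's centre to the nearest gene start (bp, downstream positive), for swap regions and 3 other kinds. The swap line peaks at 8.06% in the bin just downstream of the start, below the lines for ETO in both conditions and for all 4 lists, while the line for Flag in both conditions is nearly flat.

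The promoter sequences covered by swap regions were rich in G, C and SP/KLF motifs, as were those under several other kinds of region. A swap region overlapped the promoter window (250 bases before to 50 after the start) of 316 genes, 271 of them protein-coding. The median GC content of these windows was 65.3%, against 58.3% over all 27305 genes in the table. The ratio of observed to expected CpG was 0.848, against 0.580. The SP/KLF motif, bound by the zinc finger factors of that family, was in 242 of the 316 (76.6%), against 44.6% of all genes. The ETS motif was in 29.1% (17.6% of all genes), the CCAAT box in 37.0% (35.7%) and the TATA box (TATAAA) in 5.38% (11.95%). The AP-1 motif (TGANTCA) was in 4.75% (7.76%), the CRE (TGACGTCA) in 4.11% (1.98%) and the E-box CAGCTG in 18.4% (17.7%).

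The RUNX core was in 45 of the 316 windows (14.2%, 10.8 to 18.5), against 19.4% of all genes. It was in 139 of 910 windows under knockdown ETO alone (15.3%) and 56 of 281 under control Flag alone (19.9%). It was in 8 of 25 windows covered by Flag-both regions (32.0%), 68 of 359 covered by ETO-both regions (18.9%) and 2 of 3 covered by mirror regions. None of the differences from these last 3 kinds passed Fisher's exact test after adjustment, in which genes covered by both kinds were left out (adjusted p = 0.076 for each). Regions in all 4 lists covered 4796 windows, of which 23.9% (22.7 to 25.1) held a RUNX core. In a comparison added after the lists were seen, the swap share differed by -11.9 points (33 of 275 against 1138 of 4755, two-sided Fisher's exact test, p = 1.6e-06). Counting only the bases that lay inside the regions, there were 0.487 RUNX cores per kb in swap regions and 0.961 in regions of all 4 lists, from 24 and 1101 cores. The values for regions with control Flag alone (0.572, from 19 cores) and knockdown ETO alone (0.576, from 69 cores) were close to that of the swap regions. GC content was close, at 65.3% and 68.3%, and the covered part of the window was shorter for swap regions (mean 156 against 239 bp). The part of region width in this difference was not tested. The promoter windows are a minority of the swap regions, so the share with a RUNX core away from gene starts is not described here.

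**Figure D5:**
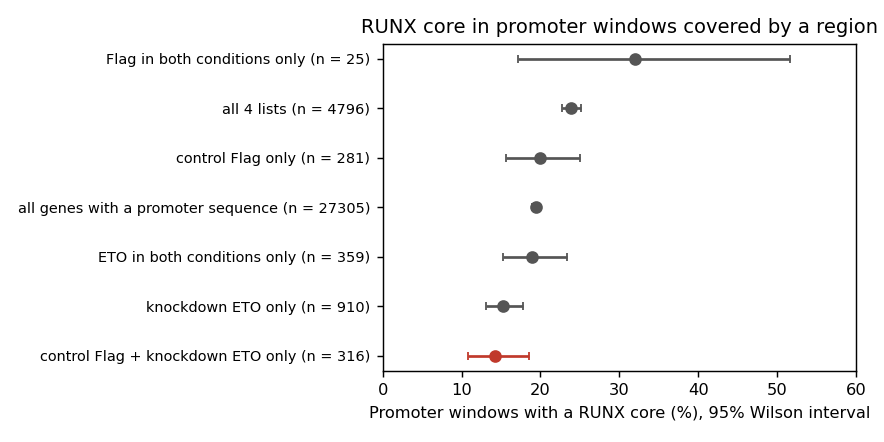
Share of promoter windows (250 bases before to 50 after a gene start) with a RUNX core on either strand, in percent with 95% Wilson intervals, for genes covered by each kind of region and for all genes. The swap share is the lowest, at 14.2%, and its interval overlaps those for ETO in both conditions and for knockdown ETO only.

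Swap regions were spread over the genome. Chromosome 1 held 157 (11.7%, against 9.81% of all merged regions), chromosome 19 held 124 (9.27%, against 13.1%) and chromosome 17 held 112 (8.38%, against 10.9%). Chromosome 8 held 34 (2.54%), against 4.26% of all merged regions and 10.3% of Flag-both regions. Its share of the other kinds was nearer that of swap regions. It was 1.55% for ETO-both, 2.14% for knockdown ETO alone, 2.94% for control Flag alone and 3.49% for all 4 lists. The median spacing between neighbouring swap regions was 366132.5 bp, against 38001 bp for Flag-both, and 84 neighbouring pairs lay within 10 kb, against 359. Spacing was measured for no other kind of region, and Flag-both regions were concentrated on few chromosomes. On chromosomes 8, 11, 16, 17 and 19 together lay 66.4% of them, against 43.2% of all merged regions, 31.3% of swap regions and 20.7% of ETO-both regions. The densest 1-Mb window held 11 swap regions (chr1:27002078-28002078, from TRNP1 to SMPDL3B), while the densest Flag-both window held 81. Swap regions were thus mostly far from each other, though not from merged regions of other kinds.

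The 10 swap regions with the most shared bases were at genes of varied roles, and 4 of them lay within 1 kb of a gene start. At FJX1, which encodes a four-jointed family protein, the control Flag peak was 695 bp and lay wholly inside the 781-bp knockdown ETO peak (chr11:35618368-35619148). The nearest control ETO peak was 43654 bp away and the nearest knockdown Flag peak 534641 bp away. At OTUB1, a deubiquitinase, the peaks of 721 and 984 bp shared 670 bp upstream of the gene start, and the ETO peak reached across it (chr11:63985621-63986655). At PDSS2, a subunit of the enzyme that makes the side chain of coenzyme Q, they shared 666 bp (chr6:107459717-107460408), and the absent antibodies had peaks 179 and 220 bp away. At TAF5L, a component of histone acetyltransferase complexes, they shared 651 bp 832 bp from the start (chr1:229624939-229625641), and the nearest calls of the absent antibodies were 65487 and 66203 bp off. Another swap region lay on the other side of the TAF5L start (chr1:229626249-229626920), where the peaks shared 472 bp. FJX1 and TAF5L thus lay far from calls of the absent antibodies, while PDSS2 lay beside them.

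The other 6 lay farther from a gene start. LRR1, a substrate receptor of cullin ubiquitin ligases, had the longest overlap, 714 bp (chr14:49600106-49600923), 1575 bp from its start. BICD2, an adaptor of the dynein motor, had 671 bp (chr9:92762272-92762989). A region inside PIK3CD, the gene of a phosphoinositide 3-kinase subunit of white blood cells, had 644 bp (chr1:9626888-9627630), with a knockdown Flag peak 50 bp away. Regions near the noncoding RNA LINC02574 and within H2AZ2, a histone variant gene, and CFAP141 shared 628, 620 and 614 bp.

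Of 15843 protein-coding genes with a start in the table, 432 (2.73%) had a swap region within 1 kb of a start. At 156 of these 432 (36.1%) a region in all 4 lists lay within 10 kb of the start, against 29.9% of all such genes. Of 171 listed genes of the AML1-ETO, blood, signalling, cell cycle, chromatin and repair lists, 7 (4.09%) had one: LDB1, CORO2A, DNMT3A, FLT3, SMAD3, AKT1 and MDM2. No list supplied more than 1 of them.

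Among partners and corepressors, the adaptor LDB1, which joins LIM domain proteins to other factors in blood cells, had its 431-bp swap region 278 bp downstream of the start (chr10:102114509-102114939). Another of 204 bp lay 1121 bp upstream (chr10:102116021-102116224). CORO2A, an actin-binding component of the NCoR complex, had control Flag and knockdown ETO peaks of 338 and 336 bp that shared 336 bp (chr9:98192858-98193195), with the nearest calls of the absent antibodies 62115 and 62137 bp away. A swap region lay within 10 kb of the corepressor gene NCOR1, at the start of its neighbour PIGL. HDAC3, TBL1X, TBL1XR1, GPS2 and SIN3A had none within 10 kb.

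Among blood, chromatin and signalling genes, FLT3, a receptor tyrosine kinase of blood progenitors that is often mutated in acute myeloid leukaemia, had a 504-bp control Flag peak inside a 754-bp knockdown ETO peak over its start (chr13:28100349-28101102). The nearest control ETO and knockdown Flag peaks were 37131 and 38535 bp away. No region in all 4 lists lay in FLT3 or within 10 kb of it. DNMT3A, a DNA methyltransferase, had the reverse nesting, with a 524-bp ETO peak inside a 705-bp Flag peak 42 bp from a start (chr2:25342280-25342984). SMAD3, a transducer of TGF-beta signals, had peaks that shared 374 bp 51 bp upstream of a start (chr15:67098410-67098845), with a control ETO peak 242 bp away. AKT1, a kinase of growth and survival signalling, had peaks that shared 274 bp 279 bp upstream (chr14:104795872-104796182). MDM2, the ubiquitin ligase of p53, had peaks that shared 273 bp 113 bp downstream (chr12:68808890-68809384). FLT3 and CORO2A stood far from any call of the absent antibodies, while SMAD3, AKT1 and MDM2 lay within 1 kb of one.

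Counting the gene body and 10 kb on either side, 29 of 210 listed genes (13.8%) held 35 swap regions, against 8.01% of 20056 protein-coding genes. Gene length differs between genes and sets how many regions a gene can hold, and this was not tested. RUNX1, the gene of the fusion's DNA-binding part, held 3 (chr21:34909623-34910333, chr21:34911958-34912528 and chr21:35042426-35042904) beside 8 regions in all 4 lists. RUNX2, RUNX3, CBFB, RUNX1T1, CBFA2T2 and CBFA2T3 held none. Of 18 genes of TGF-beta and SMAD signalling, 5 held 1 each: the receptors ACVR1B, BMPR2 and TGFBR1, SMAD3, and the SMAD repressor SKIL. Of 31 blood transcription factors, 1 (ID3) did, and none of 11 granule protein genes did. The cell cycle genes CDKN1A and CDKN1B, which encode inhibitors of cyclin-dependent kinases, held 1 each and E2F2, a transcription factor of the cell cycle, held 2.

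Gene families of general function had 1 to 10 genes each with a swap region at a start, beside the background of 2.73%. Of 63 cytosolic ribosomal protein genes, 3 did (4.76%: RPL35, RPL36 and RPS18), as did 1 of 69 mitochondrial ones (1.45%: MRPL9). Of 39 proteasome genes, 2 did (5.13%: PSMD6 and PSMD9), and 10 of 437 zinc finger ZNF genes did (2.29%). Of 73 histone genes, 4 did (5.48%: H2AC14, H2BC14, H3C7 and H4C14). With 10 kb on either side, 22 of 81 histone genes shared 9 swap regions, since these genes lie in clusters. All of these shares rest on few genes.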

How the data were processed

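The CUT&RUN data of the tagged Kasumi-1 line were used as the authors' deposited lists of peak positions (chromosome, start, end), which carry no score, count or replicate name. Per the labels' protocols, fragments of 150 to 400 bp were selected and read as 75-bp pairs with about 40 M reads planned for each library. Per the submitters' processing notes, the tools named are fastp 0.19.5, Bowtie2 2.3.5, MACS2 2.2.5 and HOMER 4.8, and the builds hg38 and sacCer3. The peak threshold, the handling of replicates and the use of the IgG libraries are not given in the sources used here. Both the threshold and the depth set how long a list is, and cutting the lists to their widest peaks moved which regions were members.

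The 4 single-antibody lists were merged at an overlap of at least 1 bp. The 5 lists that the authors derived from them were not used for membership. Gene starts came from the RefSeq promoter table (GRCh38.p14: 35116 starts of 27305 genes), and gene bodies from the RefSeq gene table of that assembly. Coordinates are written with starts counted from 1. Shares carry 95% Wilson intervals, and Fisher's exact tests (two-sided, with Benjamini-Hochberg adjustment) compared them, using scipy 1.17.1 and statsmodels 0.14.6 beside pandas 2.3.3 and numpy 2.4.6 (Python 3.11.15). The functions were tested on 2000 simulated regions, and passed 21 of 21 checks.

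The members, gene lists and tests were chosen with earlier results of these data known. The motif search was planned for the region centres and was run on covered promoter windows instead, since no genome sequence was used here. The comparisons with control Flag alone, knockdown ETO alone and all 4 lists were added after the lists were seen. Named regions are the 10 with the most shared bases, those within 1 kb of the start of a listed gene, and the 5 just inside and 5 just outside the rule. The ones in or within 10 kb of listed genes, and 3 of the 6 sequences, were chosen after their values were seen. Alternatives were other overlap rules, list lengths, chromosomes, distances to a gene start, gene sets, promoter windows and motif letters.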

Additional observations from a re-analysis of the deposited data

How the results depend on the processing

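The differences in share at a gene start from Flag-both (16.2 to 26.1 percentage points) and ETO-both (-40.4 to -26.8) kept their direction and passed the test under all 10 alternatives, as did those from control Flag alone (8.75 to 16.95) and all 4 lists (-27.4 to -15.3). The lower RUNX core share than in all 4 lists kept both under all 8 (-18.3 to -5.47). Both counts of alternatives include the limit to chromosomes 1 to 22 and X, which left every value unchanged and is no separate check. With all lists at the shortest length, keeping the widest peaks, there were 491 swap and 96 mirror regions, the share at a start was 23.2% and the RUNX core share 6.90%; the difference from the mirror at a start (-17.9 points) and the RUNX differences from ETO-both (-13.0) and the mirror (-19.8) then passed. With the knockdown lists at the control lengths, there were 575 swap and 70 mirror regions, and the difference from the mirror at a start (-16.9) passed. The difference from knockdown ETO alone at a start did not pass there (-1.11), at 100 bp (-3.01) or 50% overlap (-2.58), or with peaks up to 500 bp apart merged (-2.43). The share at a start was 28.4% with that merging, 24.2% within 500 bp, 44.1% within 2.5 kb, 30.5% for protein-coding genes and 41.4% within 1 kb of either gene end (added after the data were seen). Within 500 bp the difference from the mirror turned to 1.10. The RUNX share was 9.18% over 200 bases and 6.96% for TGTGGT alone. The RUNX difference from Flag-both passed at 100 bp overlap (-20.7), 50% overlap (-18.8) and TGTGGT alone (-22.2), and that from ETO-both at 50% overlap (-6.35). It turned to 0.262 for ETO-both with TGTGGT alone, and for the 3 mirror windows to 9.18 over 200 bases and 6.96 with TGTGGT alone. The cause of these changes was not tested. No paired analysis was possible because the lists name no replicate, and no library could be left out for the same reason. The search of whole regions for motifs was not run. The lists carry no depth, so how firmly each peak was called is unknown.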
